A study of Mus musculus with 6 samples.

Results

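The genes described here are 10 genes of the Notch pathway, chosen by symbol: the receptors Notch1, Notch2, Notch3 and Notch4, the ligands Jag1, Jag2 and Dll1, the nuclear effector Rbpj and the target genes Hes1 and Hey1. All 10 were found by Entrez gene ID among the 27179 genes of the count table. They were listed with the drug comparison of these same libraries already known, so their drug differences are descriptions. Whether the fit over all genes called a member is stated with no p-value, and these calls are not evidence for the choice of genes. The RNA came from a mouse acute myeloid leukemia on a C57BL/6 background that is labelled A/E9a;NRASG12D, which joins a splice variant of the fusion RUNX1-RUNX1T1 with a mutant RAS, and which the labels list as a cell line. The groups received vehicle or panobinostat, an inhibitor of histone deacetylases, for 3 days. GFP-positive leukemia cells, gated for viability with propidium iodide and called wild-type tumor cells in the series title, were then sorted from spleen, with 3 libraries per group. Strain, alleles and sort were common to both groups, and animal age and drug dose were not stated. The labels do not tie the libraries of a group to separate animals, so the p-values below cover the variation among these 6 libraries, and part of it may be technical.

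Notch receptors are single-pass membrane proteins that are activated by Jagged or Delta-like ligands on a neighbouring cell. Ligand pulling exposes the receptor to an ADAM protease and then to gamma-secretase, which releases the intracellular domain to the nucleus, where it binds RBPJ and Mastermind co-activators and switches on repressors of the HES and HEY families. In blood, Notch1 is best known for T cell commitment and T cell leukemia, Notch2 for marginal zone B cells of the spleen, Notch3 for the mural cells of vessels and for immature T cells, and Notch4 for endothelium.

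Libraries are named by group and by the leading number of their count column. Total counts ran from 25794869 to 32571961 per library, and a single count was worth between 0.0315 and 0.0403 CPM (counts scaled by library total and by TMM composition factors). Relative to the group mean, Notch1, Notch2, Jag2 and Rbpj varied more among panobinostat libraries 1, 5 and 6 than among the vehicle libraries. Notch3, Notch4 and, by a small margin, Hes1 varied more among the vehicle libraries. Jag2, Notch3 and Notch4 had at most 26 counts in a vehicle library. Each column name holds further numbers without a stated meaning. The middle number takes different values in the 2 groups, so what it marks and the drug cannot be told apart, and the last number is 1 in panobinostat library 1 and 3 in the other libraries. Of the genes listed for leukemia progenitors, Kit was at 163 to 321 CPM and Gata1 at 246 to 441 CPM in the 6 libraries. Cd34, of the same list, was lower, at 7.11 to 11.3 CPM in vehicle and 2.9 to 32.3 CPM with panobinostat. The pan-leukocyte gene Ptprc was at 1.77 to 4.43 CPM and the myeloid integrin Itgam at 0.189 to 0.489 CPM.

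The first question was which Notch genes these leukemia cells contained and at what level. Per kilobase of exon, the vehicle cells had Hes1 as the highest of the 10 at 28.8 ± 5.18 CPM per kilobase (SD, n = 3), followed by Notch2 at 17.0 ± 0.121, Rbpj at 5.32 ± 0.506 and Notch1 at 1.28 ± 0.21. These 4 levels did not overlap between neighbours in the order. Jag2, Notch4 and Hey1 were at 0.101 ± 0.0111, 0.0943 ± 0.0211 and 0.0832 ± 0.036 CPM per kilobase and overlapped each other, and Notch3 was at 0.0215 ± 0.0195, overlapping the lowest Hey1 value. Dll1 and Jag1 had at most 1 count in any library. With the length of the longest transcript in place of all exons, the order of the genes from Hes1 to Notch3 was the same, with Rbpj nearer to Notch2 at 12.4 ± 1.18 against 17.5 ± 0.124 CPM per kilobase.

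**Figure D1:**
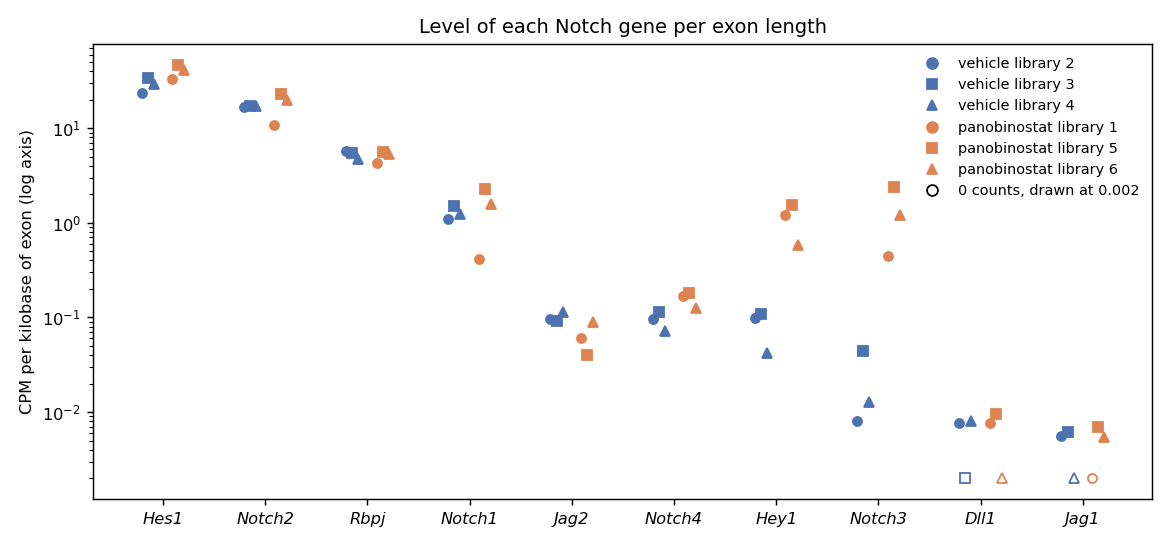
Level of each Notch gene in each library, as CPM per kilobase of exon on a log axis, with genes ordered by their vehicle mean (blue, vehicle; orange, panobinostat; open symbols, libraries with 0 counts, drawn near the lower edge). Hes1, Notch2 and Rbpj lie above 4 CPM per kilobase in every library, and Notch3 and Hey1 are the genes whose orange symbols lie far above the blue ones.

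Notch2 made up nearly all receptor RNA in the vehicle cells. Of the summed level of the 4 receptors per kilobase, Notch2 held 92.4% ± 1.16 (SD, n = 3), Notch1 6.93% ± 0.997, Notch4 0.511% ± 0.108 and Notch3 0.115% ± 0.102. With panobinostat the share of Notch3 was 3.84% in library 1, 8.54% in library 5 and 5.23% in library 6, against at most 0.233% in a vehicle library. Notch2 remained the main receptor at 87.0% ± 4.25, and Notch3 reached 1.35 ± 0.979 CPM per kilobase, about the level of Notch1 at 1.43 ± 0.945. That likeness depended on the gene length used. By the longest transcript, Notch3 was at 1.36 ± 0.988 and Notch1 at 2.15 ± 1.42, with Notch3 below Notch1 in each treated library.

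The promoter windows of the 4 receptor genes are printed because the receptors differed widely in level and in their response. Each is the 250 bases before 1 RefSeq transcript start of the gene (GRCm38.p6, the assembly of the authors' build mm10), read in the direction of transcription, 5′ to 3′. The Notch3 and Notch4 windows reach a few bases into the gene spans given with the values, which cover all RefSeq transcripts of a gene. Capitals mark the GC box, the letters GGGCGG or, on the other strand, CCGCCC, which is the core bound by SP-family factors.
Notch1 (chr2:26503823-26504072, minus strand): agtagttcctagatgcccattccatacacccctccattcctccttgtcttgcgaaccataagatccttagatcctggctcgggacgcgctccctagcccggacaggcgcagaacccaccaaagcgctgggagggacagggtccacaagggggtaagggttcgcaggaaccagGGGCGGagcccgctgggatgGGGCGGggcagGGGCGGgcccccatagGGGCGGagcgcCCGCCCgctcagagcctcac
Notch2 (chr3:98013288-98013537, plus strand): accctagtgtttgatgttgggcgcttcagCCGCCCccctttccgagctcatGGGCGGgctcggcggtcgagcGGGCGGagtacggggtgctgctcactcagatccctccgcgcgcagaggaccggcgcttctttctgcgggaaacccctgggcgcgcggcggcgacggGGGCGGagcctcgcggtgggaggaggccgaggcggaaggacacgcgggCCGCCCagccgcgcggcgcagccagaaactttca
Notch3 (chr17:32166891-32167140, minus strand): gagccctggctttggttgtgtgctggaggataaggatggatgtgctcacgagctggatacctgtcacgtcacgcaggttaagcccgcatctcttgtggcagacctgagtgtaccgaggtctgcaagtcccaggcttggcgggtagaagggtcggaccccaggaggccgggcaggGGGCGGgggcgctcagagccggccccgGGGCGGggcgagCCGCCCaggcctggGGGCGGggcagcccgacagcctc
Notch4 (chr17:34564045-34564294, plus strand): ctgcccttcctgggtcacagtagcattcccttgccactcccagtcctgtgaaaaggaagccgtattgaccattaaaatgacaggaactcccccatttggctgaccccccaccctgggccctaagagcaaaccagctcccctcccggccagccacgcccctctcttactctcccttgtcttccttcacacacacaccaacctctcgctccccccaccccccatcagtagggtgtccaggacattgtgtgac
The windows of Notch1 and Notch2 each held 5 GC boxes and that of Notch3 held 4, none of them overlapping another, while the Notch4 window held 0. Of all 32851 promoter windows of this length in the table, 32.7% had at least 1. CpG dinucleotides numbered 16 in the Notch1 window, 34 in Notch2, 17 in Notch3 and 4 in Notch4, where the median over all windows was 6. The core letters of the RBPJ motif, TGGGAA or TTCCCA on the other strand, were in none of the 4 receptor windows and in 21.6% of all windows. In the 2 overlapping windows of Rbpj itself these letters occurred at 149 and 65 bases before the first start, and the occurrence at 65 is the same one that lies 205 bases before the second start. The sequence table held windows for 8 of the 10 genes, and Hes1 and Hey1 were not among them. A match in such a window is a description of its letters and not a binding site.

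The second question was how panobinostat changed these genes. Of 12916 genes tested with edgeR's quasi-likelihood test, 21% were called at a Benjamini-Hochberg adjusted p under 0.05, 11.3% higher and 9.72% lower with panobinostat. Of the 10 Notch genes, 8 had enough counts to be tested, and 2 of these were called higher (Notch3 and Hey1) and 0 lower. DESeq2 called 3 higher, with Hes1 added, and limma-voom 2, while 4 were higher at an unadjusted edgeR p under 0.05. In the lower direction there were 0 at an unadjusted p under 0.05, in DESeq2 and in limma-voom. Nothing is read from these counts, since the genes were chosen with the comparison known. The 3 panobinostat values lay entirely on one side of the 3 vehicle values for 4 of the 8, which was true of 44.6% of all tested genes. The median log2 difference of the 8 was 0.32, against 0.01 over all tested genes.

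**Figure D2:**
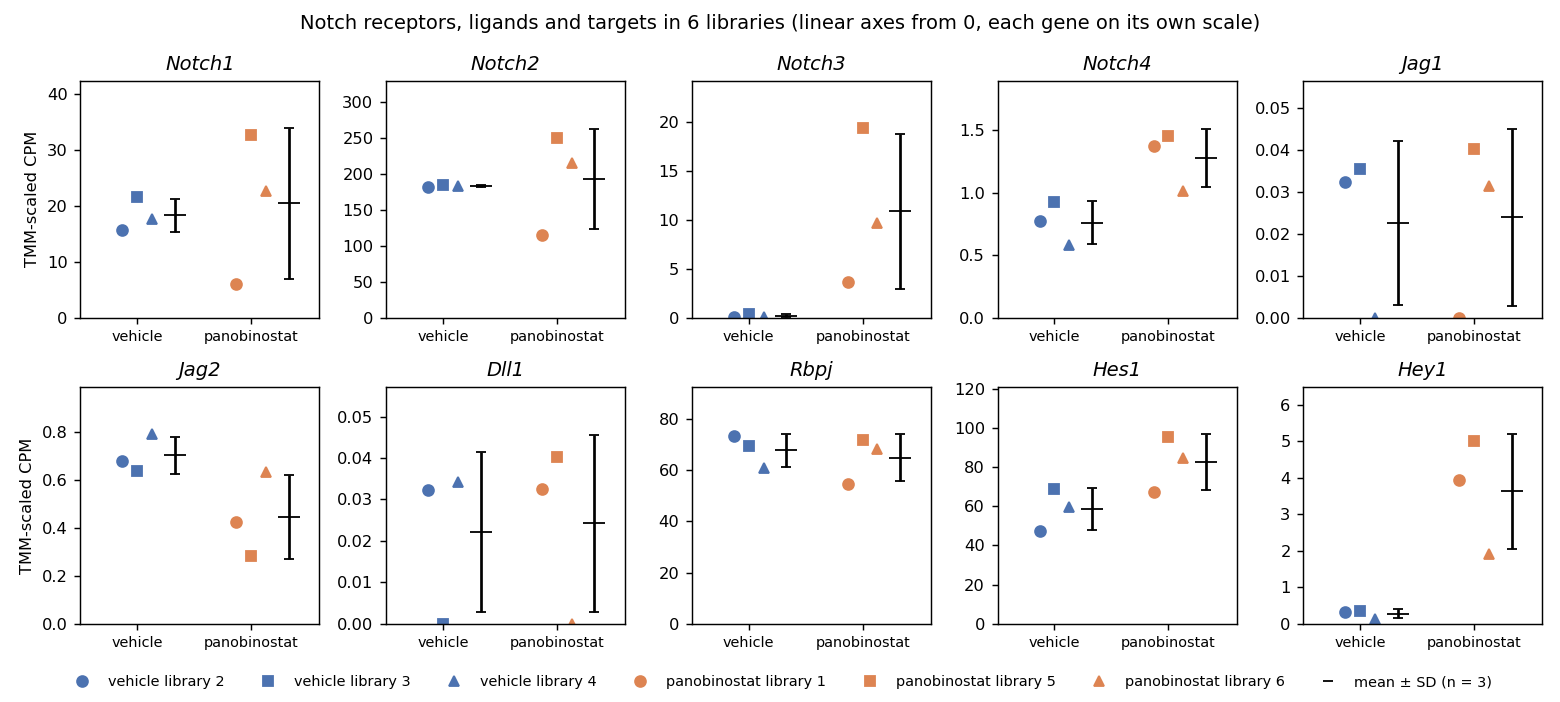
TMM-scaled CPM of the 10 Notch genes in each library, on linear axes that start at 0 and differ between genes, with the mean and SD of each group in black (n = 3). All panobinostat values of Notch3 and Hey1 lie above all vehicle values but are widely spread, whereas those of Notch1 and Notch2 lie both below and above all vehicle values.

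Notch3 (Entrez gene 18131; GRCm38 chromosome 17, 32120820 to 32166896) had the largest difference of the 10. It had 2, 10 and 3 counts in vehicle libraries 2, 3 and 4, and 112, 480 and 307 counts in panobinostat libraries 1, 5 and 6. In CPM these were 0.0646, 0.355 and 0.103 against 3.65, 19.4 and 9.68. All panobinostat libraries were above all vehicle libraries, and among them library 5 was the highest and library 1 the lowest. The fitted log2 difference was 5.96 ± 0.82 (SE), a 62.0-fold higher level. The fold rests on 15 counts in the whole vehicle group and was 124 without vehicle library 3 and 38.1 without panobinostat library 5.

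Notch2 (Entrez gene 18129; chromosome 3, 98013538 to 98150367), the abundant receptor, was at 182, 185 and 184 CPM in the vehicle libraries. In panobinostat libraries 1, 5 and 6 it was at 115, 250 and 215 CPM, so that library 1 lay below all vehicle values and libraries 5 and 6 above them. The log2 difference was 0.07 ± 0.25 (SE) and Notch2 was not called. Without panobinostat library 1 it was 0.34.

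Notch1 (Entrez gene 18128; chromosome 2, 26457902 to 26503822) showed the same arrangement at a lower level. Its vehicle values were 15.6, 21.5 and 17.6 CPM, and its panobinostat values were 5.97 in library 1, 32.6 in library 5 and 22.6 in library 6. The log2 difference was 0.16 ± 0.51 and Notch1 was not called. The difference was 0.60 without panobinostat library 1 and -0.35 without library 5, and limma-voom on all 6 libraries gave -0.18, so its direction depended on the treated libraries kept and on the method. The gene 0610009E02Rik overlaps Notch1 and had 3 to 13 counts per library.

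Notch4 (Entrez gene 18132; chromosome 17, 34564286 to 34588543) was close to the lower limit of measurement. It had 24, 26 and 17 counts in vehicle and 42, 36 and 32 with panobinostat, or 0.776, 0.922 and 0.583 against 1.37, 1.45 and 1.01 CPM. The groups did not overlap, and the log2 difference of 0.74 ± 0.3 (SE) was not called.

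The 3 treated libraries kept 1 order in Notch1, Notch2, Notch3, Rbpj and Hes1: library 1 lowest, library 6 between and library 5 highest. Long genes as a whole were lower in panobinostat library 1. Tested genes that averaged 1 CPM or more were split into quartiles by exon length. The median log2 difference of library 1 from the mean of libraries 5 and 6 was 0.17 in the shortest quartile (up to 2627 bases) and -0.18 in the longest (6638 bases or more). Against that -0.18, the difference was -2.14 for Notch1, -1.84 for Notch3 and -1.01 for Notch2, which placed them at the 0.79, 1.6 and 7.5 percentiles of genes in the longest quartile. Also in that quartile, Rbpj at -0.35 was nearer to the median, at percentile 33, and Notch4 at 0.15 lay above the median, at percentile 82. Hes1, in the shortest quartile, was at -0.41, percentile 11 there, against a median of 0.17. Hey1, in the next quartile, was at 0.31, percentile 80 there. The part that transcript length or RNA quality had in these values was not tested.

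**Figure D3:**
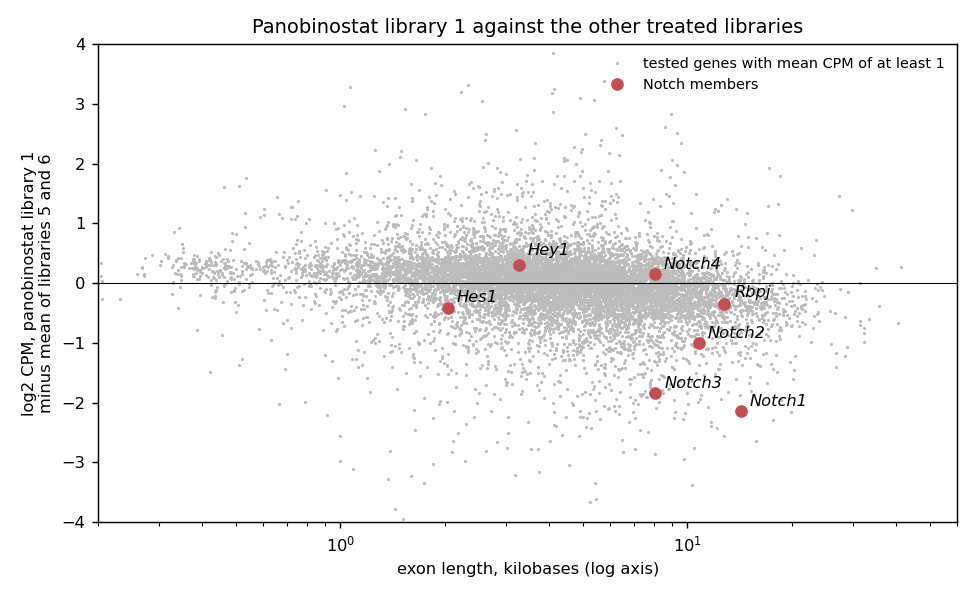
Difference in log2 CPM (with 0.25 CPM added) between panobinostat library 1 and the mean of panobinostat libraries 5 and 6, plotted against exon length on a log axis for 11176 tested genes (grey, of which 55 lie outside the axes) and for the Notch genes (red). The grey cloud falls gently with length, and Notch1, Notch3 and Notch2 lie in its lower part at -2.14, -1.84 and -1.01.

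Ligand RNA was scarce in both groups. Jag2 (Entrez gene 16450; chromosome 12, 112907803 to 112929812), a Jagged-type ligand, was at 0.679, 0.638 and 0.788 CPM in vehicle and 0.424, 0.282 and 0.631 CPM with panobinostat. All treated values were below all vehicle values, by a log2 difference of -0.63 ± 0.36 (SE) that was not called. Jag1 and Dll1, a Jagged and a Delta-like ligand, each had 2 counts in the vehicle group and 2 in the panobinostat group and could not be compared. A library with 0 counts allows a level of up to 0.0946 to 0.121 CPM, by 3 counts and for counting error only. Of the other ligand genes of the fixed list, the classical Delta-like gene Dll4 had 1 count in the vehicle group and 0 with panobinostat, the inhibitory Dll3 had 6 and 12, and the non-canonical ligand genes Dlk1 and Dlk2 had 0 and 0, and 1 and 5. None of these 4 passed the filter on low counts.

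Rbpj (Entrez gene 19664; chromosome 5, 53555779 to 53657445), the DNA-binding protein through which all Notch receptors act, was at 73.3, 69.4 and 60.7 CPM in vehicle and at 54.7, 71.9 and 68.1 CPM with panobinostat. The groups overlapped, with a log2 difference of -0.06 ± 0.13 (SE), and Rbpj was not called. Its fitted difference lay between -0.17 and 0.05 in the alternative analyses.

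Hey1 (Entrez gene 15213; chromosome 3, 8663359 to 8667038) and Hes1 (Entrez gene 15205; chromosome 16, 30065357 to 30067796) encode basic helix-loop-helix repressors and are direct targets of Notch, although other pathways also control them. Hey1 had 10, 10 and 4 counts in vehicle and 121, 124 and 61 with panobinostat, which were 0.323, 0.355 and 0.137 against 3.94, 5.0 and 1.92 CPM. All treated values lay above all vehicle values, and the treated library with the lowest Hey1 was library 6, not library 1 as for Notch3. The log2 difference was 3.71 ± 0.50 (SE), a 13.1-fold higher level.

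Hes1 was at 47.6, 68.7 and 59.6 CPM in vehicle and at 67.4, 95.6 and 84.6 CPM with panobinostat. The lowest treated value lay within the vehicle range. The log2 difference of 0.49 ± 0.17 (SE) was not called by edgeR, whereas DESeq2 on all 6 libraries called Hes1 higher. Without panobinostat library 1 the difference was 0.62, and edgeR then called Hes1 higher.

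The third question was whether the rest of the pathway changed with these genes. The 79 other genes were taken from lists of textbook pathway functions, which were drawn up with earlier results of these data known, so their counts are a description and not independent evidence. They held 61 tested genes, of which 14 were called higher (23.0%) and 4 lower (6.56%), with a median log2 difference of 0.14. Over all tested genes these shares were 11.3% and 9.72%, and the median was 0.01. All 18 calls were lost when vehicle library 2 or vehicle library 4 was left out. In edgeR, 0 were then called, with 19 higher and 5 lower at an unadjusted p under 0.05 without library 2, and 17 and 6 without library 4.

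Of the genes that cleave the receptor, 9 were tested and 4 rose. Furin, the protease that cuts the receptor precursor on its way to the surface, was at 274, 364 and 247 CPM in vehicle and 596, 1920 and 901 CPM with panobinostat, a 3.86-fold rise (log2 1.95 ± 0.41 SE, edgeR adjusted p = 0.019). Library 5 was the highest and library 1 the lowest of the treated libraries. Of all 1460 genes called higher, 717 had their highest value in library 5, 694 in library 1 and 49 in library 6. Adam10, the protease of the ligand-triggered cut, went from 289 ± 13.8 to 412 ± 58.7 CPM (SD, n = 3 each, edgeR adjusted p = 0.027), and Ncstn, the nicastrin subunit of gamma-secretase, from 97.8 ± 5.99 to 125 ± 8.91 CPM (0.034). The fourth was Aph1b, another gamma-secretase subunit, at 0.353 ± 0.0828 and 0.979 ± 0.377 CPM (0.042), named after its value was seen. With library size alone, Adam10 and Ncstn were not called, and Aph1b was not called by DESeq2 or limma-voom. Adam10, Ncstn and Aph1b also lost their calls without any 1 vehicle library and without panobinostat library 5.

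Of the 5 receptor glycosylation genes, edgeR called 0. DESeq2 called 2 lower and limma-voom 0, and 2 had an unadjusted edgeR p under 0.05. Lfng, the Lunatic fringe enzyme that alters which ligand a receptor prefers, had a log2 difference of 0.18 ± 0.18 (SE). Those of Poglut1 and Rfng were -0.33 ± 0.11 and -0.34 ± 0.11 (SE, edgeR adjusted p = 0.068 for each), without overlap between the groups. Pofut1 and Mfng overlapped between the groups, at -0.14 ± 0.10 and -0.17 ± 0.11 (SE). Of 3 tested genes for ligand endocytosis 2 rose. The ubiquitin ligase gene Mib2 went from 25.6 ± 1.20 to 37.9 ± 3.76 CPM (SD, n = 3 each, edgeR adjusted p = 0.015), a call lost without any 1 vehicle library. Neurl3, of the Neuralized family, went from 82.2 ± 19.1 to 146 ± 43.6 CPM (SD, n = 3 each, edgeR adjusted p = 0.047, and 0.0049 to 0.16 over the alternatives). Its call was lost with library size alone, with robust dispersion and without vehicle library 2 or 4 or panobinostat library 5 or 6.

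Among 9 tested genes of receptor turnover, Fbxw7, the ubiquitin ligase subunit that marks the intracellular domain for degradation, was the 1 that was called. It rose 1.88-fold, from 37.2 ± 5.43 to 70.1 ± 22.8 CPM (SD, n = 3 each, edgeR adjusted p = 0.037, and 0.0022 to 0.13 over the alternatives), with the order of libraries 1, 6 and 5 seen for Notch3. The call was lost with library size alone and without vehicle library 2, 3 or 4 or panobinostat library 5 or 6. Numb, which directs receptors to endocytosis, had a log2 difference of 0.00 ± 0.19 (SE, edgeR adjusted p = 1.0).

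Among nuclear co-activator and co-repressor genes, called increases were in both lists and called decreases in the co-repressor list only. Of 8 co-activator genes 2 rose, and both were Mastermind genes. Maml1 was at 31.0, 37.1 and 33.4 CPM in vehicle and 47.2, 52.2 and 47.6 CPM with panobinostat (log2 0.54 ± 0.10 SE, edgeR adjusted p = 0.015). Maml3 was at 21.8, 23.4 and 21.0 against 29.0, 39.7 and 38.0 CPM (log2 0.69 ± 0.14 SE, edgeR adjusted p = 0.018). The third Mastermind gene, Maml2, was not called (-0.15 ± 0.41).

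Of 14 tested co-repressor genes 2 rose and 2 fell. Tle2, a Groucho-family co-repressor, rose 2.46-fold (edgeR adjusted p = 0.015), whereas Tle1 of the same family was 1.40-fold lower (0.043), the latter named after its value was seen. The Tle1 call was lost without any 1 vehicle library and without panobinostat library 1 or 5. Fhl1, whose protein includes a form that binds RBPJ, rose from 0.114 ± 0.0244 to 0.816 ± 0.418 CPM (SD, n = 3 each, edgeR adjusted p = 0.014). Hdac2, a histone deacetylase of co-repressor complexes and of the class that the drug inhibits, fell from 130 ± 5.56 to 99.1 ± 6.15 CPM (edgeR adjusted p = 0.022). The Hdac2 call was lost without any 1 vehicle library and without panobinostat library 5.

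**Figure D4:**
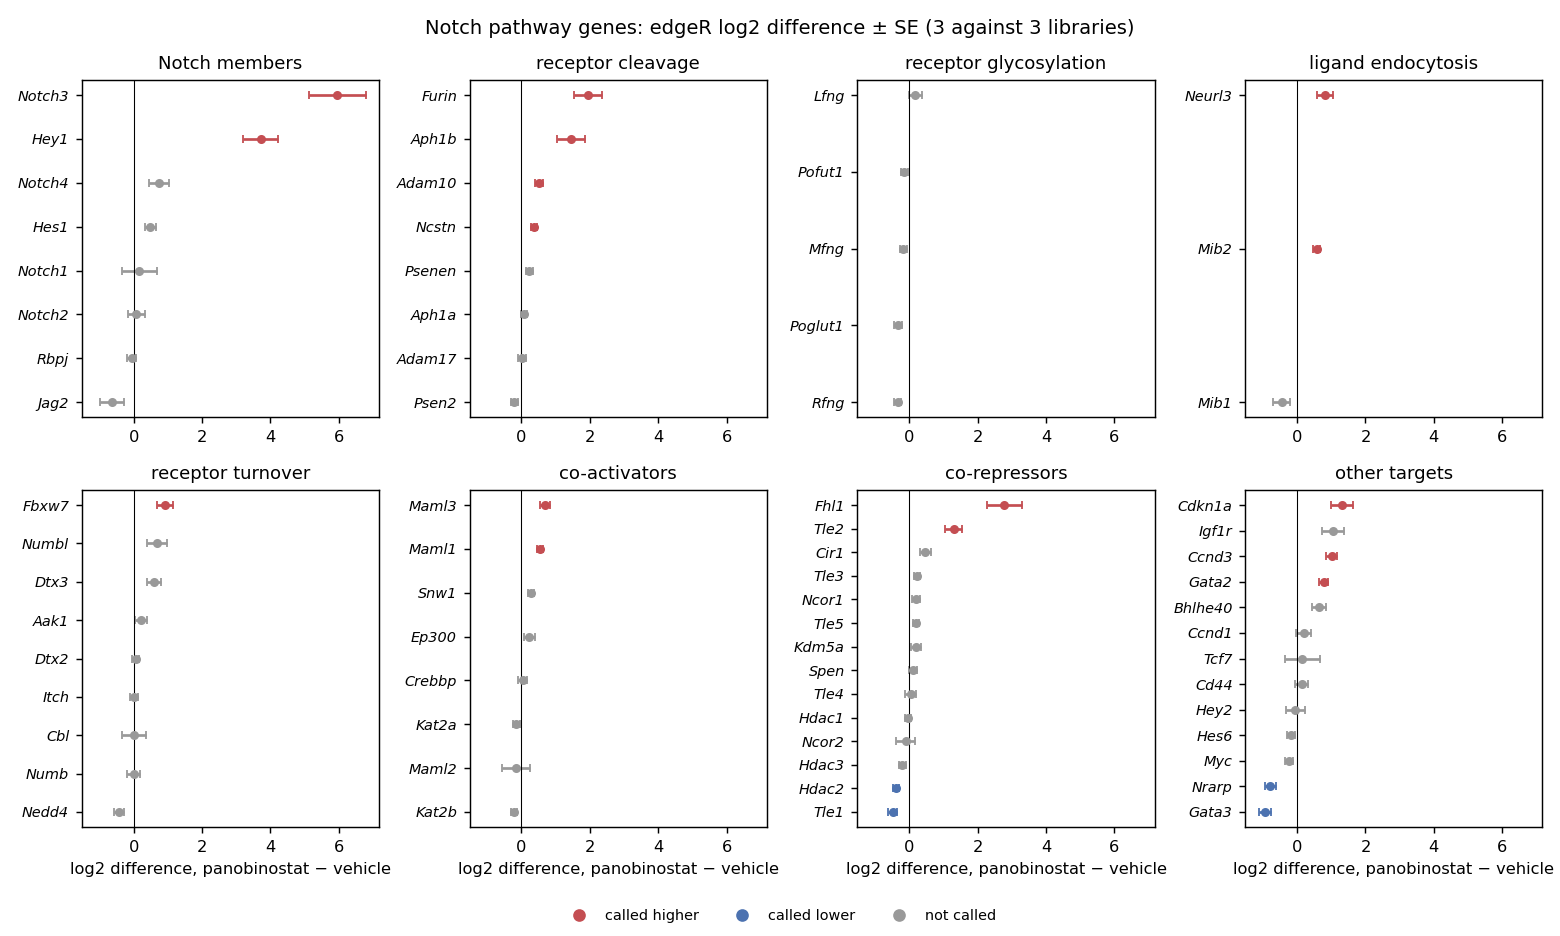
Log2 difference between panobinostat and vehicle with its standard error for the tested Notch genes and pathway genes, all but 1 of them, grouped by role (red, called higher; blue, called lower; grey, not called; 3 libraries per group). Notch3 at 5.96 and Hey1 at 3.71 lie furthest to the right, and the target list holds both called increases and called decreases.

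Other genes reported as Notch targets, most of them in T cells, did not share 1 direction. Of 13 tested, 3 rose and 2 fell. Nrarp, which encodes a feedback inhibitor of Notch signalling, was at 19.0 ± 1.34 CPM in vehicle and 11.1 ± 1.71 CPM with panobinostat (SD, n = 3 each). The highest treated value, 13.1 CPM, lay below the lowest vehicle value, 17.7 CPM, with a log2 difference of -0.78 ± 0.15 (SE, edgeR adjusted p = 0.014), and this gene was named after its value was seen. Gata3, a transcription factor of T cells and mast cells, fell 1.91-fold from 88.3 ± 8.15 to 46.2 ± 10.7 CPM (SD, n = 3 each, edgeR adjusted p = 0.014).

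The cyclin gene Ccnd3 rose from 302 ± 22.1 to 606 ± 134 CPM (SD, n = 3 each, edgeR adjusted p = 0.0098) and Gata2, a progenitor factor, from 384 ± 46.5 to 660 ± 79.4 CPM (0.011). The third increase was Cdkn1a, the cell cycle inhibitor p21, at 2.47-fold (0.031), named after its value was seen. The Cdkn1a call was lost without vehicle library 2 or 4 or panobinostat library 5 or 6. Of the HES and HEY family outside the 10 genes, Hes6 and Hey2 were tested and not called (log2 -0.18 ± 0.12 and -0.05 ± 0.27 SE). Hes5 had 1 count in vehicle and 3 with panobinostat, and Heyl had 0 counts in all 6 libraries. The T cell targets Ptcra and Il2ra had 3 counts or fewer per group.

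Genes beside the called members were compared to see whether their neighbourhood moved with them. Among the 3 nearest tested genes on each side of Notch3, Akap8l, 154527 bases away, rose 1.69-fold from 57.8 ± 2.61 to 97.9 ± 10.1 CPM (SD, n = 3 each, edgeR adjusted p = 0.0056). Rrp1b, 57954 bases away on the other side, fell 2.01-fold (0.021), a call that was lost without any 1 vehicle library. The 6 neighbours of Hey1 lay 135107 to 3084762 bases away. Of these, edgeR called 0, DESeq2 1 and limma-voom 0, while 3 had an unadjusted edgeR p under 0.05.

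The 5 genes whose pattern over the 6 libraries was nearest to that of Notch3 were Id2, Meis1, Map1a, Hba-x and Slamf1. Nearness was the Euclidean distance in log2 CPM (with 0.25 CPM added), centred on each gene's mean, over 10690 genes, and was 0.62, 1.08, 1.24, 1.39 and 1.45 for these genes against a median of 5.81. Since they were chosen on these libraries, their likeness in library order is no finding. Id2 was at 143, 727 and 329 CPM in libraries 1, 5 and 6. Hey1 ranked 38 in this order, at a distance of 2.78.

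Markers of other spleen cells were measured beside these values. Of the endothelial markers, Emcn was at 0 and Cdh5 and Cldn5 had at most 2 counts in any library, whereas Egfl7 was at 79.3 and 72.6 CPM in vehicle and panobinostat, Plvap at 26.5 and 29.1 and Tek at 5.66 and 6.8, none of them called. The summed level of the 8 genes was 110 to 116 CPM in vehicle and 107 to 135 CPM with panobinostat, with 1 gene called higher (Kdr, from 1.05 ± 0.335 to 11.6 ± 5.43 CPM, SD, n = 3 each, edgeR adjusted p = 0.0043). Of the 9 stromal markers, Pdgfra and Ccl19 were at 0, and the sums were 3.67 to 5.01 and 4.43 to 8.23 CPM. The 1 stromal gene called higher was Pdgfrb, a receptor also found on mural cells, at 0.522, 3.31 and 1.45 CPM in panobinostat libraries 1, 5 and 6, the order of Notch3. Of 8 further mural cell markers, chosen after the values of Notch3 were seen, Rgs5 and Kcnj8 were at 0 in all libraries, and 0 were called. Tagln was at 2.36 CPM in vehicle and 3.51 CPM with panobinostat (edgeR adjusted p = 0.072) and Mcam had 10 and 27 counts, both without overlap between the groups. The sums of the 8 were 5.0 to 5.14 CPM in vehicle and 4.63 to 7.82 CPM with panobinostat.

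The macrophage sum was 6.99 to 12.9 CPM in vehicle and was 41.9, 19.1 and 9.59 CPM in panobinostat libraries 1, 5 and 6, so its order differed from that of Notch3. Of 8 macrophage genes 1 was called higher. The T cell sum was at most 6.13 CPM and the B cell sum at most 7.27 CPM in any library, with 0 called in either list. Of 7 megakaryocyte markers 5 were called higher, with sums of 71.8 to 96.8 CPM in vehicle and 212 to 368 CPM with panobinostat, the highest in library 5. Of 6 dendritic cell markers 2 were called higher, with sums of 9.87 to 12.2 and 17.8 to 24.1 CPM. The part of these cell types in the Notch values was not tested. In sorted bulk RNA, a change in the number of cells of a type and a change in RNA per cell cannot be told apart.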

How the data were processed

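RNA of sorted leukemia cells was sequenced in 6 libraries. The authors deposited 1 table of raw read counts by Entrez gene, made with cutadapt 2.1, HISAT2 2.1.0 and featureCounts (Subread 2.0.0) on mm10, per the submitters' processing notes. Annotation, strand setting and handling of multi-mapped reads: not given in the sources used here. Column names give the group but no numbered replicate, and 0 columns were unused.

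Counts were filtered with filterByExpr, scaled by TMM and fitted over all 12916 remaining genes with edgeR 4.0.16 (R 4.3.3, quasi-likelihood F test, treatment as the only term, Benjamini-Hochberg adjustment, threshold 0.05). The SE of a log2 difference was its size over the root of its F statistic. Levels are CPM computed here, and per-kilobase levels use GENCODE M21 exons. The common biological coefficient of variation was 0.195. On simulated counts for 12831 genes of this comparison, 71% of 2-fold and 100% of 4-fold changes were recovered and 6.04% of calls were false. These rates describe the simulated counts only. Whether they hold for genes as variable as Notch1 and Notch3 (SE 0.51 and 0.82) was not tested separately. The same applies to genes as low as Notch4 and Jag2, at 0.76 and 0.702 CPM in vehicle.

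The members and lists were chosen with earlier results of these data known. Named genes are the members, up to 3 called genes with the smallest p per pathway list, called neighbours, and the 5 genes nearest to Notch3. Genes outside this rule were also named, among them the uncalled glycosylation genes, Numb, Maml2, Hes6, Hey2, Hes5, Heyl, Ptcra and Il2ra. Names came from RefSeq GRCm38.p6 for 25275 genes and GENCODE for 18, and 1886 had none. Alternatives were DESeq2 1.42.0, limma-voom (limma 3.58.1), 3 normalizations, 2 filters, robust dispersion and leaving out each library. Results for 2 genes, a neighbour and a pathway gene, are not reported here, although both stay in the counts.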

Additional observations from a re-analysis of the deposited data

How the results depend on the processing

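No paired analysis was possible because the count columns carry no replicate number of the labels. The smallest p of an exact permutation test in this design, 3 against 3, is 0.1. The Notch genes called higher, 2 in the reported analysis, numbered 2 to 4 when any 1 library was left out, with Notch2 and Hes1 added without panobinostat library 1, and 0 were called lower in every one of these 6 fits. These genes were chosen with the comparison known, so their counts are a description and no support. Over all genes, 1460 were called higher and 1255 lower, and leaving out 1 library gave 303 to 2192 and 135 to 1864. The lowest counts came without vehicle library 4. The other pathway genes called, 14 higher and 4 lower, ranged from 0 to 21 and from 0 to 7 under leave-one-out, and 4 of 18 calls were lost with library size alone. Neighbours called, 1 higher and 1 lower, ranged from 1 to 2 and from 0 to 2. Library size alone gave 2065 lower genes, 10 lower pathway genes and 2 lower neighbours, and shifted the median log2 difference of all genes from 0.01 to -0.10, so that 35.5% of calls were higher against 53.8%. DESeq2 gave 7 lower pathway genes and 2 higher neighbours and added Hes1 to the Notch genes called higher. Omitting the count filter also gave 2 higher neighbours. With the longest transcript as gene length, Notch2 held 89.5% of vehicle receptor RNA against 92.4%. Of 416 single-gene values, including those reported, 0 reversed a call, 69 lost one and 2 moved by more than their error. The cause of these changes was not tested. A filter of 1 CPM in 3 libraries removed Notch4 and Jag2 from the test.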
